A study of Drosophila melanogaster with 48 samples.

Results

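Of the 16995 genes in the count table, 10 were examined here: the sensors and factors of the Imd and Toll pathways named Rel, imd, PGRP-LC, PGRP-LB, PGRP-SA, PGRP-SD, cact, dl, Dif and nec. They were chosen by name for their role, with earlier results of these data known, and each symbol matched a single row. Expression was measured in single brains of adult Drosophila melanogaster, in 48 libraries that form 16 groups of 3. The groups are Tau-KO females, w1118 females, Tau-KO males and w1118 males, each as an uninjured control (Ctrl) and at 1, 2 and 4 hr after traumatic brain injury (TBI). Injury was 1 strike of a spring-driven high-impact trauma device to whole flies, and the study's methods give mated flies 10 to 14 days old. Every dissected brain, controls included, was kept under near-infrared (NIR) light for 2 hr before RNA was taken. Injured and control libraries thus do not differ in whether they were exposed, and the named hours are those of dissection. The labels give Tau-KO by name without its allele, and the methods describe w1118 flies. RNA of 1 brain, 15 ng of it, went into each library, and sequencing reads only the ends of its polyadenylated transcripts, close to the poly(A) tail. The methods name the 3 libraries of a group biological replicates, so p-values measure the spread between brains. Flies were struck together in a vial, and brains of a condition were exposed together in a dish. Whether the brains of a group had separate strikes or dishes is not given. Differences between strikes or dishes therefore cannot be told apart from differences between groups.

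Flies detect bacteria by their peptidoglycan, and 2 pathways carry that signal to factors of the NF-kappaB family. In the Imd pathway the membrane receptor PGRP-LC signals through the adaptor imd to Relish (Rel), while PGRP-LB, an amidase that degrades peptidoglycan, dampens it. In the Toll pathway the circulating proteins PGRP-SA and PGRP-SD take part in recognition, the serpin necrotic (nec) restrains the protease cascade that activates the ligand, and cactus (cact) holds the factors dorsal (dl) and Dif in the cytoplasm. Both pathways switch on antimicrobial peptide genes, mostly in the fat body, and parts of both are active in the head and brain.

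The depth was shallow and uneven. Counts assigned to genes ranged from 39517 to 1668925, and 2 libraries held under 100000, namely Tau-KO male control replicate 1 and w1118 male 1 hr replicate 3. In 16 libraries, 8 of each strain, counting noise did not account for the distance to any other library: even to the most similar one the chi-square divided by its degrees of freedom exceeded 4. Deep libraries pass this limit more easily, and the 16 are said below to stand apart. Neuronal markers summed to between 1210 and 2780 CPM (counts scaled to a common library size, normalized) in every library, and photoreceptor markers to between 2280 and 33000 CPM. Of the fat body markers Fbp1 and Fbp2 had 1 and 13 counts in all, while Yp1, Yp2, Yp3 and Lsp2 were abundant. Of the hemocyte markers NimC1 and He had 5 and 9 counts. The targeted gene tau had a median of 142 CPM in Tau-KO libraries and 152 CPM in w1118 libraries, so its 3′ reads do not tell the strains apart. A deletion that leaves the 3′ end would not be seen in such reads. The male-specific RNA roX1 had a median of 905 CPM (52.5 to 1320) in libraries labelled female and 987 CPM (747 to 1590) in those labelled male. Medians were 126 and 155 CPM for roX2, also male-specific, and 1940 and 1590 CPM for the yolk protein gene Yp1. These RNAs did not separate the labelled sexes, so female and male name the labels here and below. In whole brains, fewer cells of a type and less RNA per cell cannot be told apart.

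The inhibitors nec and cact were the most abundant of the 10 genes. The serpin nec had a median of 206 CPM over 48 libraries, the inhibitor cact 163 CPM and the Imd factor Rel 97.2 CPM. The peptidoglycan-binding proteins came next, with medians of 42.5 CPM for PGRP-LB, 41 CPM for PGRP-SA, 29.1 CPM for PGRP-SD and 27.2 CPM for the receptor PGRP-LC, and dl lay among them at 28.2 CPM. The adaptor imd had 15.4 CPM and Dif 3.48 CPM. Counts of 3′ ends follow the number of molecules and not the length of a gene, so these levels are set side by side without a correction for length. Within libraries nec lay above cact in 39 of 48, with a median log2 ratio of 0.33 that is smaller than its SD over libraries (0.48), and cact lay above Rel in 45 of 48 (0.8, SD 0.56). Rel lay above PGRP-LB in 43 (1.01, SD 1.34). From PGRP-LB to PGRP-LC neighbours did not differ beyond the SD of their ratio. PGRP-LB exceeded PGRP-SA in 19 of 48 libraries, PGRP-SA exceeded PGRP-SD in 33, PGRP-SD exceeded dl in 25, and dl exceeded PGRP-LC in 19.

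**Figure D1:**
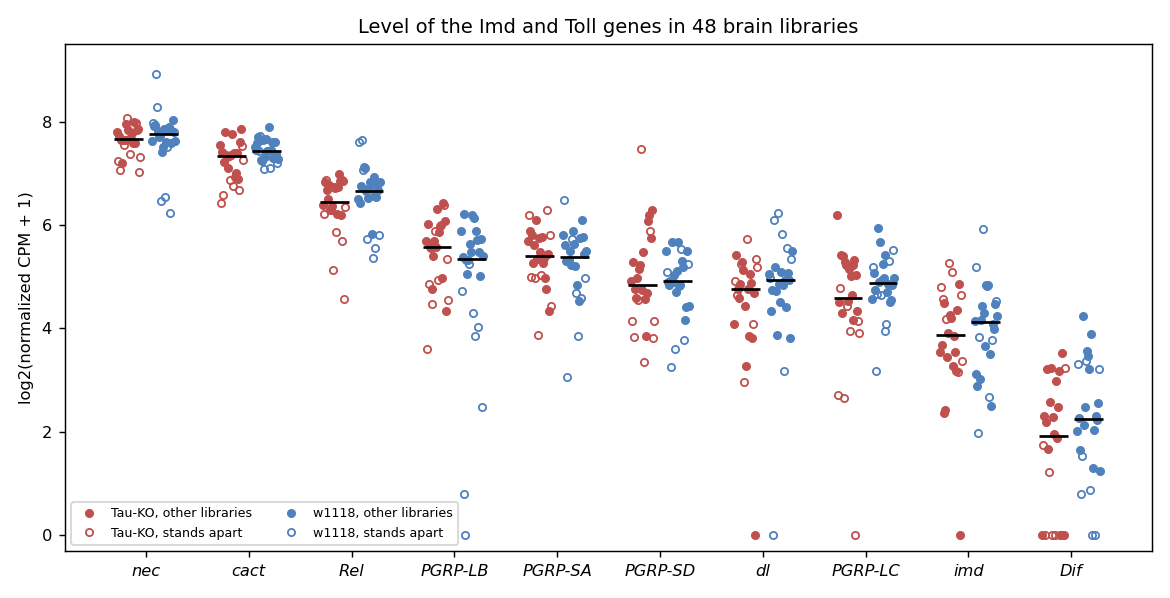
Level of each gene as log2(normalized CPM + 1) in the 24 Tau-KO libraries (red) and the 24 w1118 libraries (blue), with the median as a bar. Open symbols are the 16 libraries that stand apart; they hold the highest and the lowest nec value (483 and 74.2 CPM) and the highest PGRP-SD value (177 CPM).

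The 3 most abundant genes had the smallest spread. The spread between replicates of a group, as an SD on the log2 scale, was 0.35 for cact, 0.4 for nec and 0.57 for Rel, then 0.59 for PGRP-SA, 0.68 for imd and 0.78 for PGRP-SD, and reached 0.91 for dl and PGRP-LC and 1.08 for PGRP-LB. For PGRP-LB, dl and PGRP-LC this exceeded the 0.73 that was the median of the 100 genes nearest to each in level, and for PGRP-SD that median was 0.66. Dif, the factor that with dl serves Toll signalling, had 117 counts in all, at most 9 in a library and 0 in 10 libraries. It fell below the filter on low counts in the fit of each strain and in that of all 48 libraries. Its statistics therefore come from a fit without that filter. The other 9 genes passed in each of these filtered fits.

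Neighbouring genes limit what some counts mean. In the BDGP6 annotation the last 500 bases of Rel (chromosome arm 3R) overlap Nmdmc on the same strand, and those of PGRP-SD (3L) overlap CG32373 on the same strand and CG7492 on the other. The ends of imd and nec (2R) overlap GstE9 and pk on the other strand, PGRP-LB (3R) overlaps CG17230, cact (2L) overlaps fzy and Dif (2L) overlaps CG15141. PGRP-LC (3L), PGRP-SA (X) and dl (2L) overlap no other gene there. Whether counting used the strand is not given in the sources used here. The partners of imd and PGRP-SD were abundant, with 6129 counts for GstE9 against 506 for imd and 4360 for CG7492 against 855 for PGRP-SD, so the values of these members are uncertain. Nmdmc had 799 counts against 2873 for Rel. The strand cannot separate that pair where they overlap, so the values of Rel are uncertain too. The partner of nec had 126 counts against 6122.

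To ask which of these genes respond to injury, each time point was compared with the control of the same strain and sex by edgeR's quasi-likelihood test. A gene counted as called where its log2 fold change lay above 1 or below -1 and its p was under 0.05, either unadjusted, the limit of the study's figures, or adjusted over all genes tested. Over the 12 comparisons 7 of 108 values of the 9 filtered genes were called without adjustment, which is 6.48% against a background of 3.91% of all genes. None passed after adjustment by edgeR, where the background was 0%, and DESeq2 also called 0. At an unadjusted p under 0.05 with no fold limit there were 8 (7.41%, against 5.11% of all genes). The 7 calls fall on 4 genes. They are imd at 2 hr in w1118 females and in w1118 males, nec at 2 hr in w1118 females, PGRP-SD at each time point in Tau-KO females, and PGRP-LB at 4 hr in Tau-KO males. For cact, Rel, PGRP-SA, PGRP-LC and dl no comparison was called. Of 36 averages over the time points 2 were called without adjustment, imd in w1118 females and PGRP-SD in Tau-KO females, which is 5.56% against 3.94% of all genes. None of the averages passed after adjustment in edgeR or DESeq2, where the background in edgeR was 0.0191%. With no fold limit 5 had an unadjusted p under 0.05 (13.9%, against 6.44% of all genes).

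**Figure D2:**
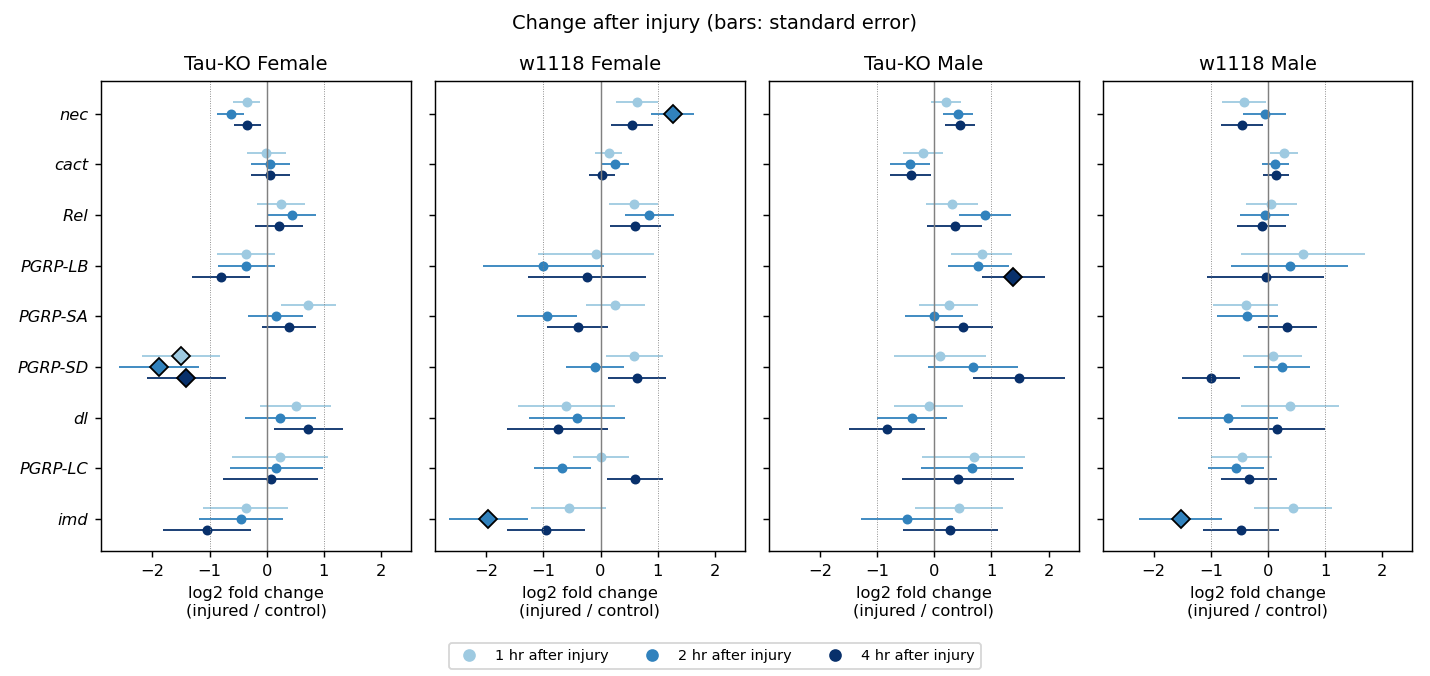
Log2 fold change (injured over control) with its standard error for the 9 filtered genes at 1, 2 and 4 hr in each strain and sex. Diamonds mark the 7 changes called without adjustment, among them nec at 1.26 and imd at -1.96 in w1118 females at 2 hr; 0 passed after adjustment.

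The clearest pattern was that of nec in females, where injured brains of the 2 strains lay on opposite sides of their controls. In w1118 females nec was at 169, 181 and 87.4 CPM in the controls, 197, 239 and 250 CPM at 1 hr, 242, 312 and 483 CPM at 2 hr and 208, 210 and 224 CPM at 4 hr. All 9 injured libraries lay above all 3 controls, which held for 0.493% of genes in either direction. In Tau-KO females it was at 228, 246 and 266 CPM in the controls, 150, 209 and 221 CPM at 1 hr, 132, 146 and 198 CPM at 2 hr and 186, 198 and 200 CPM at 4 hr. Here all 9 injured libraries lay below all 3 controls, which held for 0.877% of genes.

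In w1118 females the log2 fold change of nec was 0.64 (standard error 0.37) at 1 hr, 1.26 (0.37) at 2 hr and 0.55 (0.37) at 4 hr. The 2 hr change was called with an unadjusted p of 0.00268 and an adjusted p of 0.505 in edgeR, in a comparison that called 5.4% of all genes. Means at 2 hr were 346 ± 124 CPM after injury and 146 ± 50.9 CPM in the control (SD, n = 3 each). The average over the time points was 0.82 (standard error 0.32, unadjusted p = 0.0172, adjusted p = 1 in edgeR), under the fold limit, and 2.45% of all genes had an unadjusted p under 0.05 there.

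In Tau-KO females the change of nec was smaller, at -0.35 (standard error 0.24) at 1 hr, -0.63 (0.24) at 2 hr and -0.34 (0.24) at 4 hr. Its average was -0.44 (standard error 0.19), with an unadjusted p of 0.0329 and an adjusted p of 0.516 in edgeR, where 8.85% of all genes had an unadjusted p under 0.05. Means at 2 hr were 159 ± 34.7 CPM after injury and 247 ± 19.3 CPM in the control (SD, n = 3 each).

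Part of the size of the nec change rests on libraries that stand apart. The lowest w1118 female control, at 87.4 CPM, and the 2 highest 2 hr libraries, at 312 and 483 CPM, are among them. Without the 16 libraries the 2 hr change in w1118 females was 0.48 (unadjusted p = 0.0621), with 1 injured library left that the fit takes to vary like the other groups, and the average was 0.36 (unadjusted p = 0.0452, edgeR). In Tau-KO females the average without them was -0.27 (unadjusted p = 0.125, edgeR). In the 2 hr library at 483 CPM the fat body markers summed to 20500 CPM and the photoreceptor markers to 33000 CPM, against 1220 to 4050 CPM and 2370 to 7690 CPM in the w1118 female controls, and the gut markers to 11.7 CPM against 237 to 3870 CPM. The control values of 1220, 2370 and 3870 CPM all come from replicate 1, the control with nec at 87.4 CPM. The other controls had gut sums of 237 and 238 CPM. Muscle markers summed to 100 CPM in that 2 hr library, against 1590 to 2310 CPM in the controls. At 2 hr 3 of 4 tested fat body markers and 3 of 5 photoreceptor markers were called higher, and 2 of 3 gut markers lower. The same 2 gut markers were called lower at 1 and 4 hr too, against the same controls. The part of these marker differences in the nec change was not tested.

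In males nec was not called at any time point. Tau-KO males had 130, 158 and 231 CPM in the controls, 165, 202 and 203 CPM at 1 hr, 192, 218 and 255 CPM at 2 hr and 190, 229 and 249 CPM at 4 hr, with log2 fold changes of 0.2, 0.42 and 0.45 (standard error 0.26 each). In w1118 males it had 197, 221 and 260 CPM in the controls, 91.6, 195 and 232 CPM at 1 hr, 180, 229 and 237 CPM at 2 hr and 74.2, 190 and 225 CPM at 4 hr. Injured and control groups overlapped in both. The 2 lowest values, 91.6 and 74.2 CPM, come from libraries that stand apart.

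The other inhibitor, cact, the IkappaB protein of the Toll pathway, had the narrowest range of changes. Its log2 fold changes over the 12 comparisons lay between -0.42 and 0.28, with standard errors of 0.23 to 0.36. Levels in w1118 females were 172, 208 and 210 CPM at 2 hr, against 134, 158 and 201 CPM in the controls. In Tau-KO males they were 121, 127 and 168 CPM at 2 hr, against 151, 183 and 231 CPM in the controls. These groups overlap. In w1118 males at 1 hr cact was at 172, 165 and 236 CPM, against 164, 145 and 154 CPM in the controls, without overlap, as for 8.05% of genes. That change was 0.28 (standard error 0.24), and the library at 236 CPM has 17 counts of cact.

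**Figure D3:**
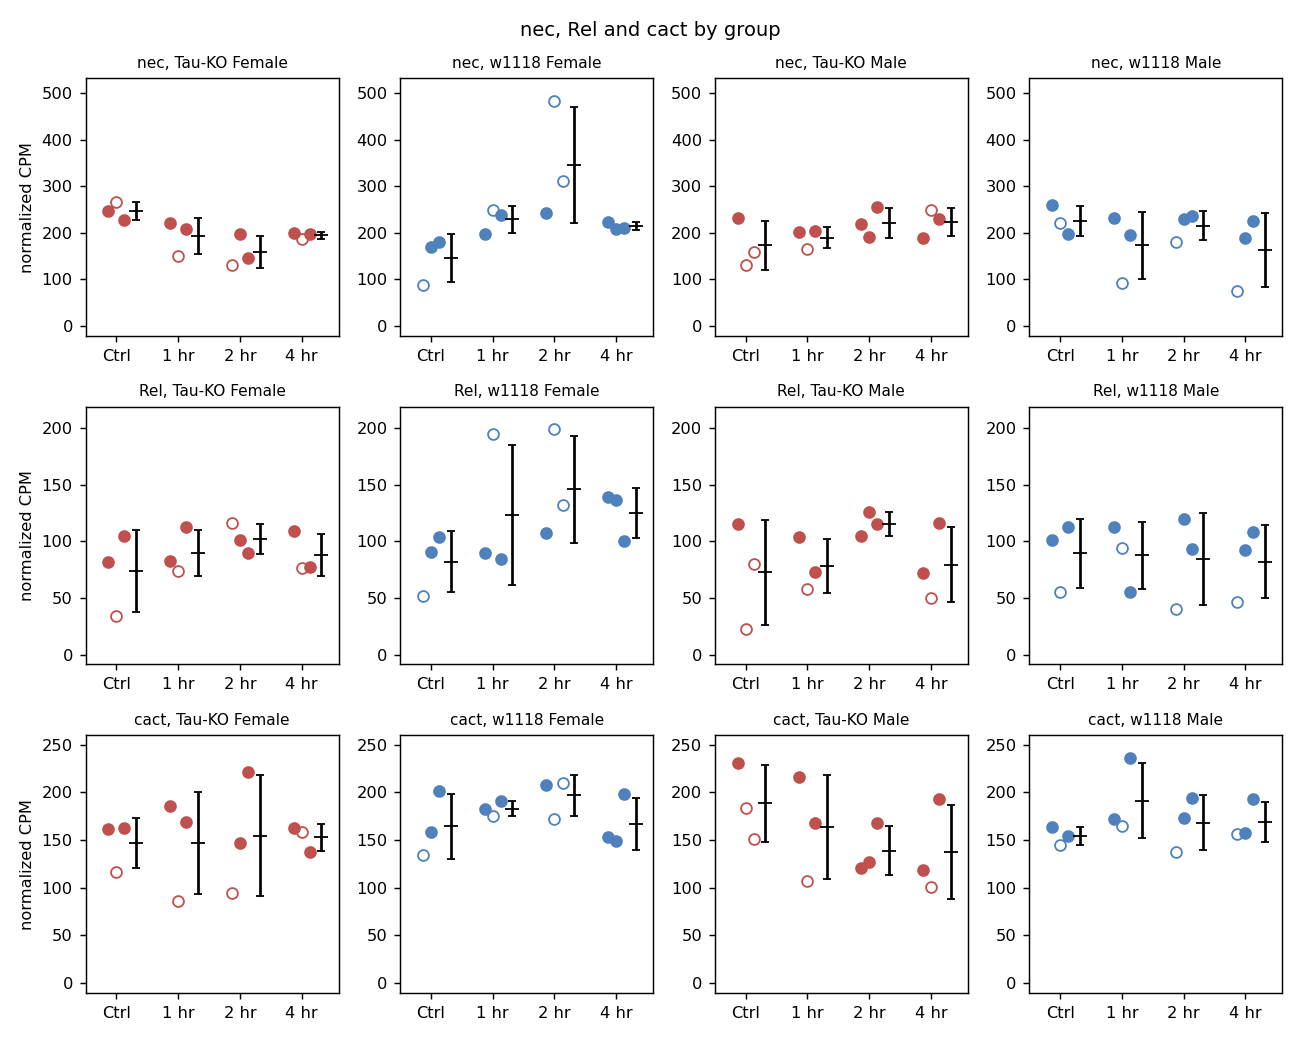
Normalized CPM of nec, Rel and cact in each library (points, open where the library stands apart), with the group mean and SD beside them, for the control and 1, 2 and 4 hr after injury. In females the 9 injured nec values lie above the controls in w1118 (197 to 483 against 87.4 to 181 CPM) and below them in Tau-KO (132 to 221 against 228 to 266 CPM), while cact groups overlap.

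PGRP-SD, a secreted recognition protein placed upstream of Toll and also described as an enhancer of Imd signalling, was called lower at every time point in Tau-KO females. It had 13, 52 and 20 counts in the controls, which is 36.7, 177 and 25.9 CPM. Injured libraries had 29.3, 16.6 and 37.8 CPM at 1 hr, 13.3, 26.2 and 23 CPM at 2 hr and 30.4, 22.5 and 34.6 CPM at 4 hr. A single control, replicate 2 at 177 CPM, is far above the others, and injured and control groups overlap at each time point.

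The fitted log2 fold change of PGRP-SD in Tau-KO females was -1.5 at 1 hr, -1.89 at 2 hr and -1.41 at 4 hr (standard errors 0.69, 0.7 and 0.69). Unadjusted p-values were 0.0392, 0.0118 and 0.0498 and adjusted p-values 0.789, 0.72 and 0.976 in edgeR, with backgrounds of 4.11%, 4.03% and 2.21% of genes called. The average over the time points was -1.6 (standard error 0.53, unadjusted p = 0.00532, adjusted p = 0.495 in edgeR), where 4.27% of genes were called. Without control replicate 2, which stands apart, the changes at 1, 2 and 4 hr were -0.17, -0.56 and -0.08. Without all libraries that stand apart they were 0.17, -0.25 and 0.13, so the direction turned at 1 and 4 hr. The 3 calls share this control group and are not independent of each other.

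In the other groups PGRP-SD was not called with all libraries in the filtered fit. In Tau-KO males it had 72, 58.4 and 52.7 CPM at 4 hr, against 76.9, 13.1 and 16.8 CPM in the controls, where 76.9 CPM stands for 4 counts in the shallowest library. That change was 1.48 (standard error 0.8, unadjusted p = 0.076, adjusted p = 0.26 in edgeR), and 1.99 (unadjusted p = 0.0161, adjusted p = 0.0861) without that control. With all libraries but no filter on low counts it was 1.49 (unadjusted p = 0.0295, adjusted p = 0.224 in edgeR), which met the unadjusted limits of a call. In w1118 males PGRP-SD had 12.8, 16.9 and 20.4 CPM at 4 hr, against 44.2, 36.8 and 20.6 CPM in the controls. The groups do not overlap, as for 6.79% of genes in that comparison, and the change was -1 (standard error 0.51, unadjusted p = 0.0625, adjusted p = 1 in edgeR). Without control replicate 3 it was -1.26 (unadjusted p = 0.0319).

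PGRP-SA, which with GNBP1 recognises Gram-positive peptidoglycan for Toll, had log2 fold changes of -0.94 to 0.73 over the 12 comparisons, with no call. Its largest difference was at 2 hr in w1118 females, with 38.5, 7.3 and 38.7 CPM after injury against 52, 57.7 and 48.6 CPM in the controls. All 3 injured libraries lay below the controls, as for 6.97% of genes that did not overlap there, and the test gave an unadjusted p of 0.0884 and an adjusted p of 0.698 in edgeR. At 4 hr in the same flies PGRP-SA had 39.1, 44 and 36.5 CPM, again below all 3 controls, where 8.12% of genes did not overlap. The change at 4 hr was -0.4 (standard error 0.53).

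For dl, a Toll factor, no comparison was called, and its log2 fold changes ran from -0.83 to 0.73 with standard errors of 0.6 to 0.88, and single libraries spanned 0 to 74.3 CPM. In w1118 females it had 25.7, 0 and 67.9 CPM at 2 hr, against 74.3, 28.1 and 21.8 CPM in the controls. In these same libraries Dif, the other factor, had 1, 1 and 2 counts at 2 hr, against 5, 7 and 6 counts in the controls, which is 2.14, 0.73 and 1.89 CPM against 9.29, 10.9 and 10.1 CPM. That difference, -2.65 (standard error 1.41, unadjusted p = 0.0496, adjusted p = 0.63 in edgeR), met the limits of a call in the fit without a filter, where 7.41% of genes did. It is outside the 108 values counted above and rests on counts of 1 to 7 in a library.

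In the Imd pathway the adaptor imd was lower at 2 hr in w1118 brains of either sex. In w1118 females it had 3, 4 and 14 counts (6.42, 2.92 and 13.2 CPM) at 2 hr, against 32, 12 and 7 counts (59.5, 18.7 and 11.7 CPM) in the controls. The groups overlap, and the highest control stands apart. In w1118 males it had 2, 7 and 3 counts (5.37, 10.3 and 4.65 CPM) at 2 hr, against 13, 24 and 13 counts (21.3, 22.1 and 17.9 CPM) in the controls. The male groups do not overlap, a background of 6.35% of genes.

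The log2 fold change of imd at 2 hr was -1.96 (standard error 0.69, unadjusted p = 0.00865, adjusted p = 0.57 in edgeR) in w1118 females. In w1118 males it was -1.53 (standard error 0.72, unadjusted p = 0.0407, adjusted p = 1 in edgeR), where 0.913% of genes were called. Without female control replicate 1 the female change was -1.01, and the average over the female time points, -1.16 with an unadjusted p of 0.0328 in a comparison that called 1.81% of genes, was -0.2. Without all libraries that stand apart the male change at 2 hr was -1.34 with an unadjusted p of 0.0341, as the single member call that remained. Leaving out single libraries of the comparison gave -2 to -1.31, and the call held in 2 of 6 cases. In a fit without the filter on low counts the unadjusted p was 0.0657. At 1 hr in w1118 males imd had 27.7, 27.1 and 27.8 CPM, above all 3 controls, and at 4 hr 12.8, 15.9 and 14.8 CPM, below all 3. The changes there were 0.43 (standard error 0.68) and -0.47 (0.67), and non-overlap held for 8.05% and 6.79% of genes. The 1 hr value of 27.8 CPM is 2 counts in a library of 59781 counts, where 3 counts stand for 41.7 CPM. Its place above the controls is thus uncertain.

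In Tau-KO flies imd was not called at 2 hr. It had 22.7, 21.5 and 4.17 CPM in females at 2 hr, against 14.1, 37.5 and 18.1 CPM in the controls, and 13.4, 10.7 and 8.1 CPM in males at 2 hr, against 0, 23.9 and 9.35 CPM. The 0 is from the library of 39517 counts, where a count of 0 allows up to 57.6 normalized CPM (3 counts). The changes were -0.45 (standard error 0.74) and -0.48 (0.81).

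PGRP-LC, the receptor, had log2 fold changes of -0.67 to 0.69 with standard errors of 0.49 to 0.98 and no call. It was at 60.5, 28.8 and 50.2 CPM at 4 hr in w1118 females, against 24.2, 29.7 and 36.9 CPM in the controls. In Tau-KO females at 1 hr single libraries spanned 5.54 to 71.9 CPM, against 20.5 to 36.7 CPM in the controls, so replicates of a group differed by more than the groups.

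PGRP-LB, the amidase that removes peptidoglycan and is itself a known target of Imd signalling, was called higher at 4 hr in Tau-KO males. It had 85.1, 82.3 and 66.8 CPM at 4 hr, against 19.2, 39.4 and 22.4 CPM in the controls, and the groups do not overlap. Non-overlap held for 14% of genes and 18.6% were called in that comparison. At 1 hr the level was 77.9, 29.8 and 57.3 CPM and at 2 hr 61.8, 62.9 and 30.4 CPM, so both of these groups overlap the controls.

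The change of PGRP-LB at 4 hr in Tau-KO males was 1.38 (standard error 0.55, unadjusted p = 0.018, adjusted p = 0.141 in edgeR). Means were 78.1 ± 9.85 CPM after injury and 27 ± 10.8 CPM in the control (SD, n = 3 each). The average over the time points was 0.99 (standard error 0.47, unadjusted p = 0.0419, adjusted p = 0.333 in edgeR), just under the fold limit, and 14.4% of genes had an unadjusted p under 0.05 there. The control at 19.2 CPM is 1 count in the shallowest library, and the other controls stand apart. Of the markers Pxn (-2.75, 1 of 3 hemocyte genes tested), trp (-1.71, 1 of 5 photoreceptor genes) and Act88F (-1.03, 1 of 5 muscle genes) were called lower at 4 hr. The hemocyte list summed to 130 to 170 CPM at 4 hr, against 137 to 173 CPM in the controls. The photoreceptor list summed to 5010 to 7920 CPM, against 4950 to 6420 CPM. Their part in the PGRP-LB change was not tested.

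In Tau-KO females PGRP-LB lay below its controls at 2 and 4 hr. It had 28, 46.5 and 45.9 CPM at 2 hr and 26.1, 21.2 and 41.2 CPM at 4 hr, against 50.8, 58 and 46.6 CPM in the controls. Non-overlap held for 11.4% and 8.08% of genes, and the changes of -0.36 (standard error 0.5) and -0.8 (0.51) were not called.

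PGRP-LB was nearly absent from 2 of the 48 libraries. At 2 hr in w1118 females it had 34, 1 and 0 counts, which is 72.8, 0.73 and 0 CPM, against 37.2, 48.4 and 43.6 CPM in the controls. The libraries with 1 and 0 counts of PGRP-LB held 1547843 and 1243843 counts in all genes, which places both among the deepest, and both stand apart. The fitted change of -1 had a standard error of 1.06. With replicate 1 left out it became -6.2 (unadjusted p = 2.07e-05, adjusted p = 0.0309 in edgeR), a fit against 2 libraries at or near 0, and this was the one member call after injury that passed adjustment in any setting tried.

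**Figure D4:**
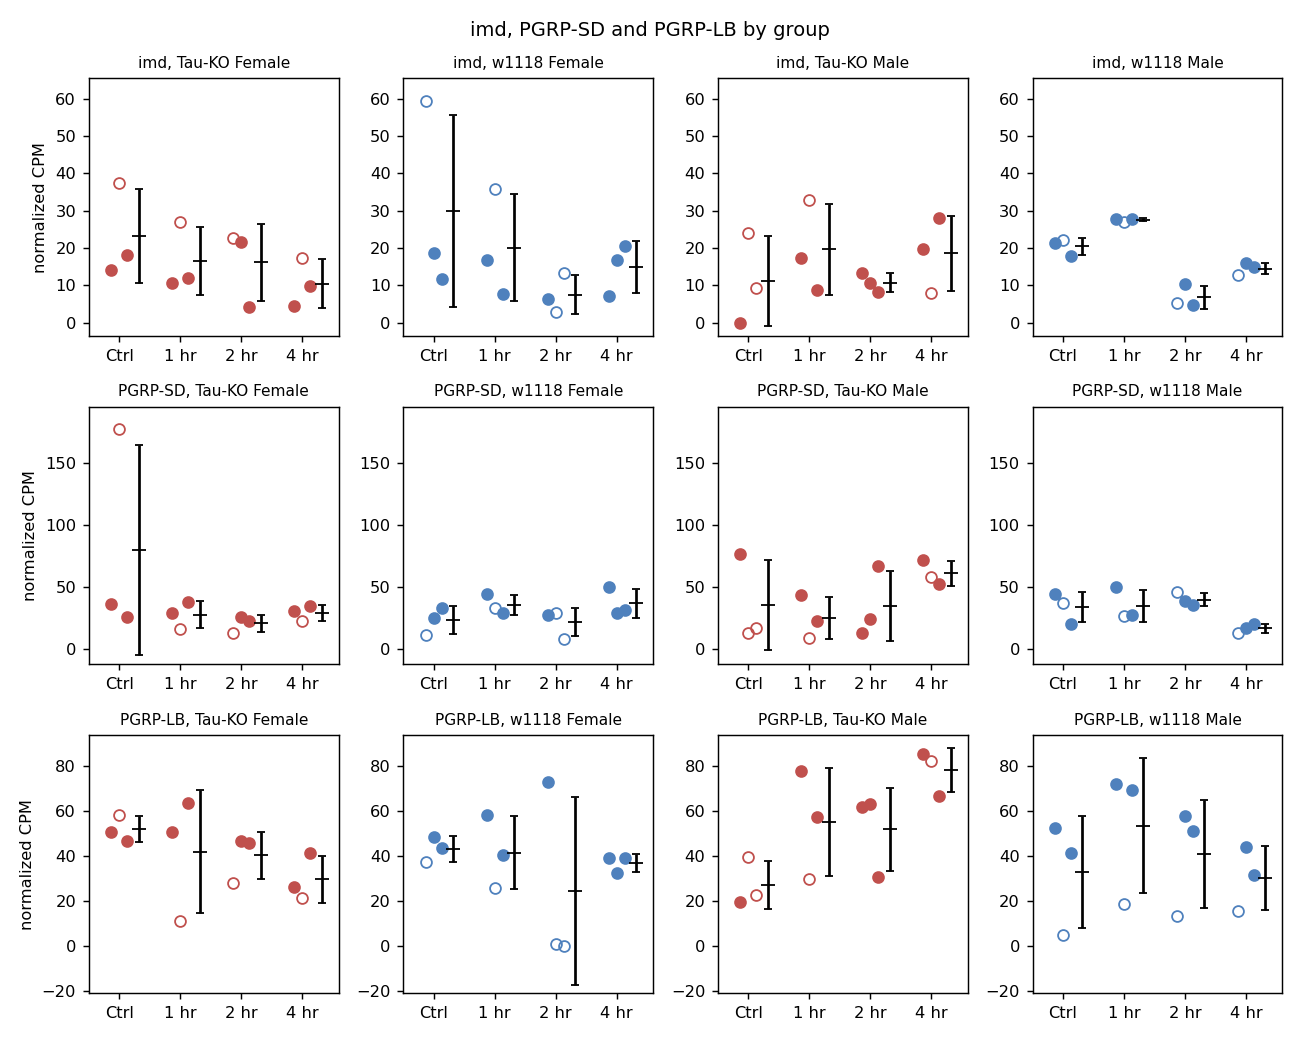
Normalized CPM of imd, PGRP-SD and PGRP-LB in each library (points, open where the library stands apart) with the group mean and SD, for the control and 1, 2 and 4 hr after injury. The PGRP-SD mean of the Tau-KO female control is set by 1 library at 177 CPM, and PGRP-LB is at 0.73 and 0 CPM in 2 libraries of w1118 females at 2 hr; an SD bar under 0 is the arithmetic SD.

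Rel, the factor at the end of the Imd pathway, was not called, and its log2 fold changes were positive in 10 of the 12 comparisons, between -0.11 and 0.89. The time points of a strain and sex share their controls, so these signs are not independent of each other. The lowest Rel control of each strain and sex stands apart. It was at 22.7 CPM in Tau-KO males, 34.1 in Tau-KO females, 52 in w1118 females and 55.2 in w1118 males. In w1118 females it had 90.5, 104 and 52 CPM in the controls, 84.8, 90 and 195 CPM at 1 hr, 107, 132 and 199 CPM at 2 hr and 100, 137 and 139 CPM at 4 hr. All 3 libraries at 2 hr lay above the controls, where 6.97% of genes did not overlap in either direction, while the groups at 1 and 4 hr overlap the controls. The change at 2 hr was 0.85 (standard error 0.43, unadjusted p = 0.0603, adjusted p = 0.692 in edgeR), and the average was 0.68 (standard error 0.36).

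In Tau-KO males Rel had 105, 126 and 115 CPM at 2 hr, against 115, 22.7 and 80.4 CPM in the controls. The change was 0.89 (standard error 0.46, unadjusted p = 0.0628, adjusted p = 0.686 in edgeR). It reached 1.14 (unadjusted p = 0.0211) without control replicate 1, the shallowest library, and 1.44 (unadjusted p = 0.0255) without control replicate 3, so this value depends on which control is kept. In Tau-KO females the 3 changes lay at 0.25, 0.44 and 0.21, and in w1118 males at 0.06, -0.06 and -0.11, with standard errors of 0.42 to 0.44.

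Whether the response differed between sexes or strains was tested as a difference of the average response over 1, 2 and 4 hr. Of 36 values 5 were called without adjustment (13.9%, against 7.28% of all genes), and 0 passed after adjustment in edgeR (0.00904% of all genes) or DESeq2. With no fold limit 6 had an unadjusted p under 0.05 (16.7%, against 8.4% of all genes). For nec the Tau-KO response minus the w1118 response in females was -1.26 (standard error 0.36, unadjusted p = 0.00122, adjusted p = 0.612 in edgeR), where 3.49% of genes were called. Without the libraries that stand apart it was -0.62 (unadjusted p = 0.0105). In males the same difference was 0.7 (standard error 0.37, unadjusted p = 0.0684).

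The nec response of females minus that of males was 1.13 in w1118 (standard error 0.43, unadjusted p = 0.0154, adjusted p = 1 in edgeR; 1.64% of genes called) and -0.79 in Tau-KO (standard error 0.29, unadjusted p = 0.0119, adjusted p = 0.154), the last in a comparison where 21.6% of genes had an unadjusted p under 0.05. Without the libraries that stand apart these were 0.4 (unadjusted p = 0.0978) in w1118 and -0.11 in Tau-KO, where 1 male control is left, the library of 39517 counts with 12 counts of nec. The strain and sex differences share the female libraries and are not separate evidence.

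For PGRP-SD the response of Tau-KO females was below that of Tau-KO males by -2.35 on the log2 scale (standard error 0.89, unadjusted p = 0.0134, adjusted p = 0.157 in edgeR), in a comparison that called 18.4% of genes. It was below that of w1118 females by -1.98 (standard error 0.72, unadjusted p = 0.00833, adjusted p = 0.98 in edgeR). Both use the control library at 177 CPM, and without it they were -1.05 and -0.64. PGRP-LB responded less in Tau-KO females than in Tau-KO males, by -1.5 (standard error 0.62, unadjusted p = 0.0218, adjusted p = 0.179 in edgeR). Without the libraries that stand apart that difference was -1.77, set against a single male control with 1 count of PGRP-LB.

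Averaged over the control and injured groups, none of the 9 genes was called between females and males in either strain (0 of 18 values in edgeR and in DESeq2, against 0.591% of all genes). With no fold limit 0 had an unadjusted p under 0.05, against 2.05% of all genes. The largest difference was that of Rel in w1118, at 0.42 (standard error 0.22, unadjusted p = 0.0665), and Rel exceeded every male library in 5 of 12 female libraries. In Tau-KO the sex differences lay between -0.35 for PGRP-LB and 0.38 for PGRP-LC.

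Between the strains 1 of 45 values was called without adjustment (2.22%, against 2.46% of all genes), and 0 passed after adjustment in edgeR or DESeq2. With no fold limit 2 had an unadjusted p under 0.05 (4.44%, against 5.02% of all genes). The call was PGRP-SD in female controls, at 1.73 (standard error 0.62, unadjusted p = 0.00796, adjusted p = 0.855 in edgeR), in a comparison that called 4.28% of genes, and it was 0.39 without the control at 177 CPM. In the same controls nec had 228, 246 and 266 CPM in Tau-KO, against 169, 181 and 87.4 CPM in w1118, a log2 difference of 0.75 (standard error 0.31, unadjusted p = 0.021, adjusted p = 0.855 in edgeR). Of all genes 5.69% had an unadjusted p under 0.05 there, and 8.78% did not overlap between the strains, as nec did not. The responses of nec compared above are thus measured from female controls that did not overlap between the strains. In male controls PGRP-LC had 19.2, 16.7 and 14 CPM in Tau-KO, against 27.8, 45.1 and 30.3 CPM in w1118. These groups do not overlap either, as for 7.42% of genes, and the difference was -1.13 (standard error 0.75, unadjusted p = 0.138, adjusted p = 1 in edgeR). The value of 19.2 CPM is 1 count in the library of 39517 counts, where 3 counts stand for 57.6 CPM. The other Tau-KO male controls stand apart, so the lack of overlap is uncertain.

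Over all 24 Tau-KO and 24 w1118 libraries the strain differences of the 9 genes lay between -0.26 for Rel (standard error 0.16) and 0.31 for PGRP-LB (0.3). That of imd was 0 (0.25), that of nec -0.07 (0.11) and that of cact -0.19 (0.1). For nec and cact the standard errors are small enough that a difference of 1 on the log2 scale lies many standard errors away. Strain cannot be told apart from any difference in the handling of the strains' libraries.

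**Figure D5:**
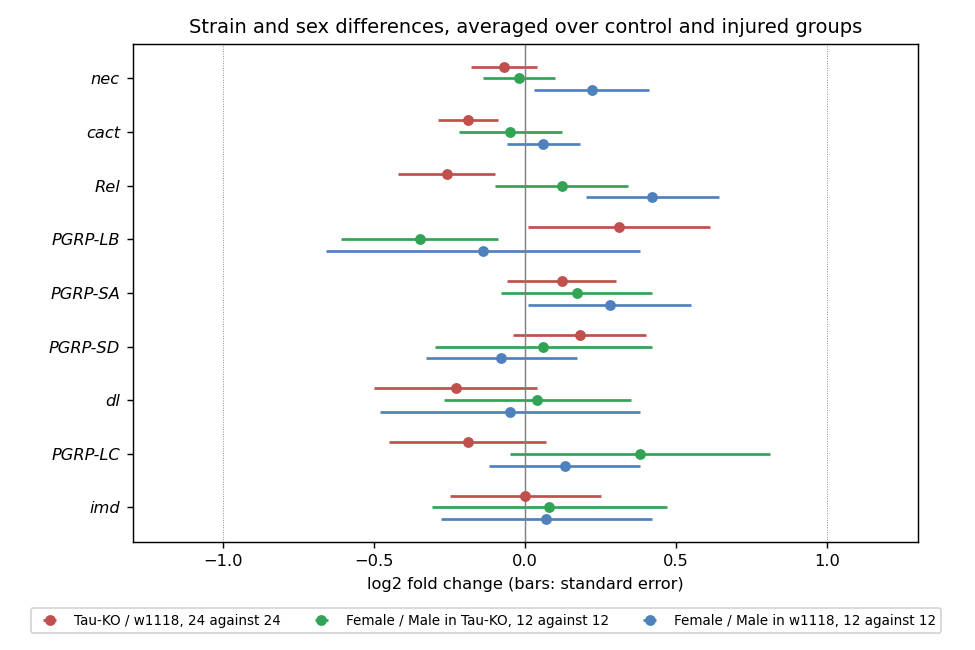
Log2 fold change with standard error of the 9 filtered genes for Tau-KO over w1118 (24 against 24 libraries) and for females over males in each strain (12 against 12). All points lie between -0.35 and 0.42, inside the dotted lines at 1 and -1.

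The remaining genes of the pathways were read from lists of 23 further Imd and 23 further Toll genes. PGRP-LD, PGRP-LF, PGRP-SC1a, PGRP-SC1b, key and Toll-9 are listed at 0 in every library. Of the other Imd genes 11 passed the filter, and 0 were called at any time in w1118. In Tau-KO males PGRP-SB1, an amidase, was higher at 1 hr (1.12) and 2 hr (1.18), and PGRP-LE, an intracellular sensor, was lower at 4 hr (-1.69), with no call in Tau-KO females. Of the other Toll genes grass, a protease that leads to Toll activation, was higher in Tau-KO females at 1 hr (1.42) and 2 hr (2.11) and lower in Tau-KO males at 4 hr (-2.38). GNBP2 was lower in Tau-KO females at 4 hr (-1.2), and the Toll-family receptor Tollo was higher in Tau-KO males at 2 hr (2.09). None of these passed after adjustment in edgeR. The share of all genes called at 1, 2 and 4 hr was 4.11%, 4.03% and 2.21% in Tau-KO females and 3.21%, 5.48% and 18.6% in Tau-KO males. Among the averages over the time points grass in Tau-KO females (1.51) and Tollo in Tau-KO males (1.67) were called higher. Of all genes 4.27% and 9.49% were called in these averages.

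Between the strains Myd88, the adaptor of the Toll receptor, was called lower in Tau-KO than in w1118 female controls (-1.05, with 4.28% of genes called). Pli was called higher in male controls (2.21, with 2.87% of genes called). The response of Myd88 was called higher in Tau-KO than in w1118 females (1.22, with 3.49% of genes called) and in Tau-KO females than in Tau-KO males (1.15). In this last comparison, which called 18.4% of all genes, Diap2 (1.12) and grass (2.05) were also called higher, and Uev1A (-1.1), eff (-1.54) and Tollo (-2.16) lower. None passed after adjustment in edgeR.

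Over the 12 comparisons after injury the median log2 fold change lay between -0.41 and 0.42 for the 9 members, -0.18 and 0.46 for the other Imd genes and -0.3 and 0.33 for the other Toll genes, against -0.02 and 0.03 for all genes tested. At 2 hr in w1118 females the median log2 fold change was -0.18 for the 11 other Imd genes, -0.29 for the 17 other Toll genes, -0.41 for the 9 members and -0.02 for all 5477 genes tested. At 4 hr in Tau-KO males it was 0.1, 0.33 and 0.42, against -0.02 for all 5015 genes tested.

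Other serpins were higher together with nec at 2 hr in w1118 females. Of 5 tested, Spn28Dc (2.37), Spn88Ea (1.43) and Spn43Ab (1.03) were called higher, 0 lower, with a list median of 1.03 and a background of 3.45% of genes called higher. Their summed level was 334, 876 and 731 CPM at 2 hr, against 320, 345 and 325 CPM in the controls. The 2 high libraries are those that stand apart, while replicate 1 lay within the range of the controls. Spn28Dc was also called higher at 1 hr (2) and on average (1.79), with 0.749% and 1.81% of genes called. The response of Spn88Ea was higher in w1118 females than in w1118 males (1.08, with 1.64% of genes called). In Tau-KO males Spn27A was called higher at 4 hr (1.03, with 18.6% of genes called). In Tau-KO females 0 of 6 serpins were called at any time.

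The antimicrobial peptide genes, which both pathways control, were called in w1118 females at 1 hr, where none of the 9 members was. There AttC (2.53), CecA1 (3.17) and Dro (2.04) were called higher and Def (-2.88) lower, of 10 tested and with 0.749% of genes called. The summed level was 1130, 3430 and 836 CPM at 1 hr, against 851, 1010 and 1010 CPM in the controls, so 1 library that stands apart carries most of it. That library also held the highest Rel value at 1 hr, 195 CPM. In Tau-KO females Dro was called higher at 2 hr (1.3), and all 9 tested peptide genes had positive changes at 1, 2 and 4 hr with medians of 0.4, 1.05 and 0.85, where 4.03% of genes were called at 2 hr. Of 5015 genes tested 2635, 2549 and 2570 had positive changes at these times. The time points share their controls, so the signs are not independent of each other. Among these controls replicate 2 had a low peptide sum, 324 CPM against 952 and 977 CPM. Calls in the other direction were Def at 4 hr in w1118 females (-2.98) and, in Tau-KO males, Def at 2 hr (-2.96) and Dro at 4 hr (-1.27). Of all genes 1.15%, 5.48% and 18.6% were called there. Among the averages CecA1 was called higher (2.08) and Def lower (-2.7) in w1118 females, where 1.81% of genes were called. Dro was higher in Tau-KO females (1.02, 4.27% called) and Def lower in Tau-KO males (-2.28, 9.49% called). Over all groups AttC (-1.11) and Def (-1.41) were called lower in Tau-KO than in w1118, where 1.49% of genes were called. Def was also called lower in female controls (-3.85, 4.28% called) and over male groups (-1.7, 2.61% called). CecA1 (-1.12) and CecA2 (-1.38) were called lower over male groups too, and AttC over female groups (-1.09, 1.07% called). AttC was called higher in females than in males in Tau-KO (1.26, with 0.897% of genes called) and in w1118 (1.22, with 0.31% called). The response of Def was higher in Tau-KO than in w1118 females (3.64) and, with that of Dro (1.57), in Tau-KO females than in Tau-KO males (3.24). Of all genes 3.49% and 18.4% were called in these 2 comparisons. No peptide or serpin gene passed after adjustment in edgeR. The Tau-KO female control replicate 2, which had the lowest summed peptide level of its group at 324 CPM, against 952 and 977 CPM in the others, is the library with the high PGRP-SD.

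For 9 of the 10 genes, all but Dif, between 4 and 9 of the 16 libraries that stand apart lay outside the range of the 32 others. The 16 were picked for profiles unlike any other library, so values outside that range follow in part from the choice. The share of all genes outside it was not computed, so these counts do not single out the members. In the 32 nec ranged from 146 to 260 CPM, a 1.78-fold range, cact from 118 to 236 CPM and Rel from 55.6 to 139 CPM. In the 16 that stand apart nec ranged from 74.2 to 483 CPM, with 5 below and 3 above the range of the others. Rel had 7 below and 2 above, PGRP-LC 9 below, PGRP-LB 7 below and cact 5 below, while imd had 4 and dl 5 above. For imd and dl the range of the others begins at 0, so none could lie below. PGRP-LC had a median of 16.4 CPM in libraries that stand apart and 30.4 CPM in the others, and imd 22.4 CPM and 13.8 CPM.

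Across the 48 libraries, which share depth and the deviations above, Spearman's rho between members was highest for PGRP-SD with nec (0.56) and with PGRP-LB (0.52), and was 0.44 for Rel with nec. The genes most like some of the members, given as a description, were CG16713, Yp3 and Obp99b for Rel (0.59, 0.58 and 0.54), Eph, IM23 and norpA for nec (0.65 each), and CR40766, mgl and tth for PGRP-LB (0.82, 0.81 and 0.8). For PGRP-SD they were CG17270, Lsd-2 and Swip-1 (0.83, 0.79 and 0.78) and for imd CG15347, CG12343 and Rtca (0.79, 0.6 and 0.58). CG7497 reached 0.76 with PGRP-LC. No gene exceeded 0.59 with cact or 0.51 with PGRP-SA, and CG42672 reached 0.67 with dl.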

How the data were processed

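The deposited table gives raw counts, which the authors made with HTSeq from reads aligned by STAR 2.4 to the dm3 genome after basecalling with CASAVA 1.8.2. Rows that name no gene (5, with 23.1 to 52.8% of a library's counts, of which the row of ambiguous reads held 5.49 to 11.3%) stayed out of library sizes and tests. The authors' deposited comparison tables hold log2 fold changes and p-values with likelihood ratio scores from edgeR 3.22.3 and were not used. In a column header a stray leading letter was ignored.

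In edgeR 4.0.16 (R 4.3.3) each strain's 24 libraries were fitted with a mean per group and no covariate after filterByExpr and TMM scaling, with 5477 genes tested for w1118, 5015 for Tau-KO and, in 1 fit of the 48 libraries that served the contrasts between strains, 5821. Tests were two-sided quasi-likelihood tests (glmQLFTest) with Benjamini-Hochberg adjustment over all genes tested. Standard errors are the absolute log2 fold change over the square root of F. Normalized CPM use the TMM factors of the 48-library fit. The common biological coefficient of variation was 0.447. The script was tested on simulated data.

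The 10 genes and all lists were chosen with earlier results of these data known. All 10 are named, with full statistics where called, and genes of the pathway, peptide and serpin lists where called. Alternatives were DESeq2 1.42.0, its size factors, no filter, a replicate block, a fit of the 6 libraries compared or of the 12 controls, and leaving out libraries singly, those that stand apart, or those under 100000 counts. A library stands apart where chi-square per degree of freedom to its nearest library exceeded 4 over genes whose counts in both libraries summed to 20 or more. Replicate numbers were checked by correlating same-numbered deviations from the group means over 2000 genes. All 3 pairs exceeded 0.1 in 1 of 12 comparisons (w1118 males at 1 hr, 0.561, 0.674 and 0.244), where neither fit called a member. Gene positions come from BDGP6, another build than dm3, and are used for names and neighbours.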

Additional observations from a re-analysis of the deposited data

Results flagged for a closer look

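Differences of the averaged response that passed an unadjusted p under 0.05 with an absolute log2 difference over 1 stood out for 3 genes, and none passed after adjustment in edgeR. For nec they were -1.26 for the Tau-KO response minus the w1118 response in females and 1.13 for the female minus the male response in w1118. Without the libraries that stand apart these were -0.62 and 0.4. Both use the w1118 female libraries, with the control at 87.4 CPM among them. For PGRP-SD they were -2.35 for the female minus the male response in Tau-KO and -1.98 for the Tau-KO minus the w1118 response in females, both resting on 1 control library with 52 counts. For PGRP-LB the female minus the male response in Tau-KO was -1.5, where 1 of the male controls holds 1 count. The causes were not tested.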

How the results depend on the processing

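No member call passed adjustment in edgeR under the settings tried, apart from PGRP-LB in w1118 females at 2 hr without replicate 1 of that group and PGRP-SD for the female minus the male response in Tau-KO without the shallowest library (adjusted p = 0.0467). With both libraries under 100000 counts left out, 1 difference of response passed. Without the 16 libraries that stand apart, called values numbered 1 after injury (7 with all libraries), 0 for the averages (2), 0 between strains (1) and 0 for differences of response (5). In these fits PGRP-SD in Tau-KO females turned direction at 1 hr (0.17), 4 hr (0.13) and on average (0.01), as did its female minus male difference (0.97), where 1 male control is left, with 4 counts of PGRP-SD. With only the 6 libraries of a comparison 4 were called after injury.

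Leaving out single libraries gave 5 to 9 calls after injury, 1 to 3 for the averages, 0 to 1 between sexes, 0 to 2 between strains and 3 to 7 for differences of response, and with adjusted p 0 to 1 after injury and 0 to 1 for differences of response. Of the 15 called changes none turned direction when a library of its comparison was left out, and in 29 of 192 such values the call was lost. With the replicate block 6 values were called after injury, 1 for the averages (imd in w1118 females lost its call, at -1.12 with an unadjusted p of 0.0542), 1 between strains and 5 for differences of response. Of the 15 called changes 2 lost their call under the block, 2 without a filter, 1 with DESeq2's size factors and 0 with DESeq2. Dif was called lower at 2 hr in w1118 females where leaving out a library let it pass the filter, at -2.63 to -2.83. The cause of these shifts was not tested. Depth limits imd, with a median of 7.5 counts, and Dif, with 2.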
